A study of Mus musculus with 4 samples.

Results

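The genes described here are 10 components of the Notch pathway, chosen by symbol and matched to their Ensembl identifiers among the 39179 genes of the count data. They are the receptors *Notch1*, *Notch2* and *Notch3*, the ligands *Dll1*, *Dll3*, *Jag1* and *Jag2*, the ubiquitin ligase gene *Dtx4*, and the effectors *Hes1* and *Hey1*. Their mRNA was measured by RNA-seq in B16F1 cells, an established mouse melanoma line, as 4 libraries of polyA RNA. Parental B16F1 control cells, which are usually grown on rigid dishes, gave 2 libraries. Tumor repopulating cells (TRCs), the cells that form spheroids when B16F1 cells are seeded individually in soft fibrin gels, gave the other 2. The libraries carried the replicate numbers 1 and 3 in both groups, and nothing states that they came from separate cultures, so p-values measure only the spread between these samples. TRCs differed from the parental cells in selection and in culture at the same time, so these cannot be told apart, and both groups come from 1 cell line. The question was how TRCs and parental cells compared in their receptor, ligand and effector mRNA.

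Notch receptors are membrane proteins that are activated by ligands of the Delta-like and Jagged families on a neighbouring cell. Ligand binding exposes the receptor to an ADAM protease and then to gamma-secretase, which frees an intracellular domain. This domain enters the nucleus, joins the DNA-binding protein RBPJ and a Mastermind coactivator, and switches on target genes, among them repressors of the Hes and Hey families. In the melanocyte lineage the pathway, with *Hes1* as a target, is known for maintaining melanoblasts and melanocyte stem cells.

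Between 35948295 and 43511554 counts fell on genes per library. The detection floor of 3 counts corresponded to 0.0675 to 0.085 CPM (counts scaled to library size by TMM factors), which covers counting error only. Across genes, log2 CPM values correlated at r = 0.981 within each group and at 0.942 to 0.955 between groups. Of the melanocyte lineage markers 8 of 9 were above 1 CPM in the libraries, while *Ednrb* had at most 1 count, and their summed level was 16224 to 19418 CPM in the parental and 24519 to 27316 CPM in the TRC libraries. *Dct* alone lay at 5694 and 4334 CPM against 11154 and 10027 CPM, while 5 of these 8 markers overlapped between the groups. The 3 keratinocyte markers, 5 of 6 leukocyte markers and 3 of 5 endothelial markers had 0 counts in every library. Of the 5 fibroblast markers *Dcn* and *Lum* had at most 4 counts, whereas *Pdgfra* and *Col1a2* were above 1 CPM in every library and *Col1a1* in 2 of 4. The summed fibroblast level was 9.83 to 11.4 CPM in the parental and 3.1 to 5.65 CPM in the TRC libraries, with *Col1a2* alone at 6.7 and 7.79 CPM against 1.52 and 1.01 CPM. The 13 mitochondrially encoded genes summed to 33233 to 50526 CPM in the parental and 45236 to 48436 CPM in the TRC libraries, which overlapped. Alignments that were not unique, and so were counted for no gene, made up 15.2% and 17.1% in the parental and 18.3% and 25.2% in the TRC libraries. The part of these differences in the results was not tested.

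Of the 10 genes, 7 reached 1 CPM in 2 or more libraries, the filter used, and were tested together with all 11483 genes that passed it. Among the 3 receptors, *Notch1* and *Notch2* were downregulated in TRCs and *Notch3* did not pass the test. Of the 4 ligands only *Jag2* was upregulated, *Jag1* did not pass the test, and *Dll1* and *Dll3* were at or near the detection floor. *Dtx4* was downregulated, and of the effectors *Hes1* did not pass the test and *Hey1* was too low to be tested. Thus 3 of the 7 tested genes fell and 1 rose (edgeR exact test, FDR under 0.05 with Benjamini-Hochberg adjustment over all genes tested), where 5.67% of all genes tested fell and 9.00% rose. Their median log2 fold change of TRC over parental cells was -0.44, beside 0.00 for all genes tested. The 10 genes, and the further lists below, were chosen with earlier results of these data known. Such shares and medians therefore describe the chosen genes only. Of the 3 that fell, *Dtx4* passed the filter only through the parental libraries, so the filter admitted it only as a gene lower in TRCs. Both TRC libraries lay below both parental libraries for 4 of the 7 genes and above them for 2, where this held for 30.4% and 30.2% of all genes tested.

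**Figure D1:**
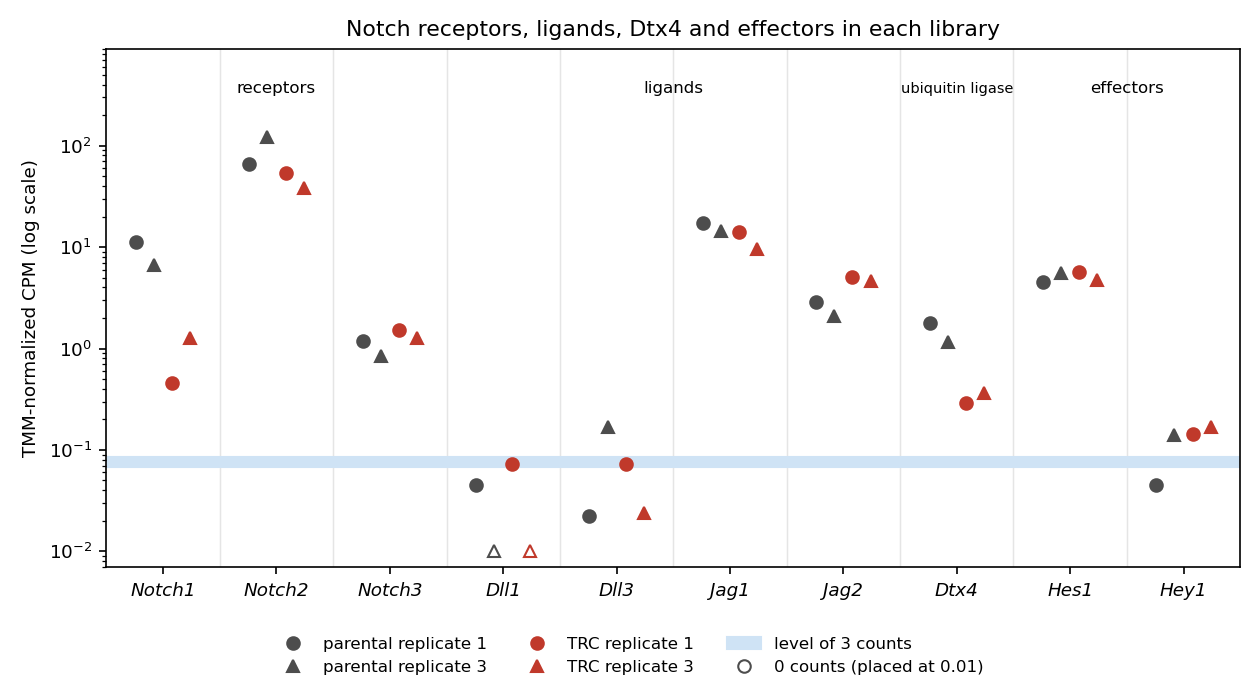
TMM-normalized CPM (y axis, log scale) of the 10 genes (x axis, by role) in each of the 4 libraries, with parental libraries in grey, TRC libraries in red, the 3-count floor as a band, and open symbols for 0 counts. *Notch1* lay at 11.1 and 6.63 CPM in the parental and at 0.457 and 1.27 CPM in the TRC libraries, while the 4 points of *Hes1* lay between 4.52 and 5.68 CPM.

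*Notch1* (ENSMUSG00000026923), on the minus strand at chr2:26457903-26516663 (GRCm38), encodes the most widely studied of the receptors. Parental replicate 1 had 493 counts of it and parental replicate 3 had 234, whereas TRC replicates 1 and 3 had 19 and 53. These correspond to 11.1, 6.63, 0.457 and 1.27 CPM, so that the lowest parental library was 5.21 times the highest TRC library. The mean fell from 8.86 ± 3.15 to 0.865 ± 0.578 CPM (SD, n = 2 each), a log2 fold change of -3.35 ± 0.55 (SE from DESeq2), with FDR = 3.38e-11 in the edgeR exact test. This was a 10.2-fold lower level in TRCs. In bulk RNA, fewer cells that express a gene and less RNA per cell cannot be told apart. Leaving out any 1 library kept the call, with a log2 fold change between -4.28 and -2.81, the former without TRC replicate 3. Exons of *Notch1* overlap the antisense genes *Gm13568* and *0610009E02Rik*, which had at most 5 and 17 counts, and the strand setting of the counting is not given in the sources used here.

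*Notch2* (ENSMUSG00000027878), on the plus strand at chr3:98013527-98150361, encodes a second receptor with the same overall build. Its levels were 65.7 and 121 CPM in parental replicates 1 and 3 and 54.1 and 38 CPM in TRC replicates 1 and 3. The groups did not overlap, but parental replicate 1 was only 1.21 times TRC replicate 1, and parental replicate 3 stood well above the other 3 libraries. Mean levels were 93.5 ± 39.4 and 46.1 ± 11.4 CPM (SD, n = 2 each), with a log2 fold change of -1.02 ± 0.33 (SE) and FDR = 0.0339 in the exact test. Without parental replicate 3 the log2 fold change was -0.51 with FDR = 0.507, and the call was also lost without TRC replicate 1 (FDR = 0.0836) and without TRC replicate 3 (FDR = 0.396).

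*Notch3* (ENSMUSG00000038146), on the minus strand at chr17:32120820-32166852, encodes a receptor best known from vascular smooth muscle. It was low in both groups, at 1.19 and 0.85 CPM in the parental and 1.52 and 1.27 CPM in the TRC libraries. Both TRC values lay above both parental values, with the nearest pair differing by 1.07 times. The log2 fold change of 0.44 ± 0.70 (SE) did not pass the exact test (FDR = 0.486), and its 95% interval from DESeq2 ran from -0.92 to 1.82.

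Because a long transcript collects more counts than a short one at the same abundance, receptors were compared with each other per length, as RPKM (CPM per kilobase of exon). *Notch2* was the main receptor mRNA in every library, at 86%, 95%, 95.1% and 91.9% of the summed RPKM of *Notch1* to *Notch4* in parental replicates 1 and 3 and TRC replicates 1 and 3. *Notch1* made up 11% and 3.93% of that sum in the parental libraries and 0.609% and 2.33% in the TRC libraries. *Notch3* made up 2.08% and 0.887% against 3.55% and 4.1%. Leaving out *Notch4*, the order per length was therefore *Notch2*, *Notch1*, *Notch3* in both parental libraries and *Notch2*, *Notch3*, *Notch1* in both TRC libraries. *Notch4* made up 0.906% and 0.148% of the sum in the parental and 0.735% and 1.71% in the TRC libraries. It thus lay above *Notch1* in TRC replicate 1 and below it in TRC replicate 3. In TRC replicate 3 *Notch3* and *Notch1* were 0.158 and 0.0895 RPKM, and in TRC replicate 1 they were 0.187 and 0.0321 RPKM. Both genes had 53 counts in TRC replicate 3, so their order there rests on the gene lengths used. With the length of the longest coding transcript, a choice made after seeing the data, *Notch3* and *Notch1* made up 3.98% and 3.36% of the sum in that library. The summed receptor RPKM was 7.08 and 11.8 in the parental and 5.28 and 3.84 in the TRC libraries and so followed *Notch2*.

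**Figure D2:**
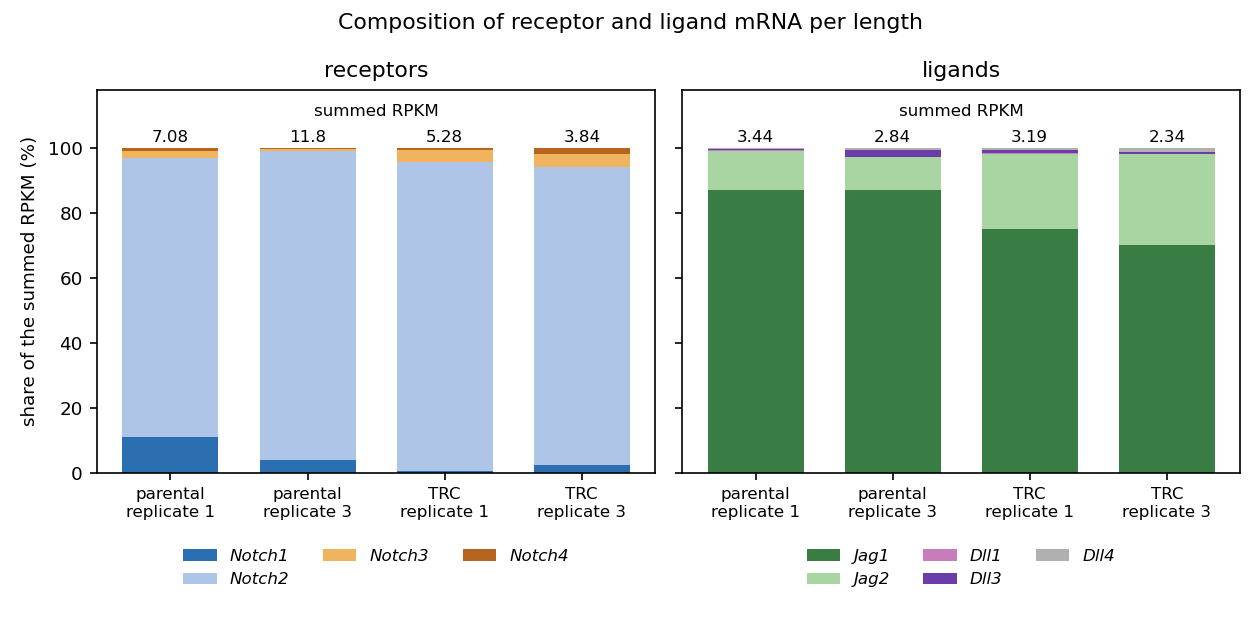
Share of the summed RPKM (y axis, percent) held by each receptor (left) and each ligand (right) in each library (x axis), with the summed RPKM printed above each bar. *Notch2* filled 86% to 95.1% of the receptor bars, and the *Jag2* share was 12% and 10.5% in the parental and 22.9% and 28.3% in the TRC libraries.

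*Jag2* (ENSMUSG00000002799), on the minus strand at chr12:112907819-112929776, encodes a Jagged ligand and was the only gene of the 10 that was upregulated. It had 128 and 73 counts in the parental and 212 and 192 counts in the TRC libraries, which correspond to 2.88, 2.07, 5.1 and 4.62 CPM. The groups did not overlap, and the lower TRC library was 1.6 times the higher parental library. Mean levels were 2.47 ± 0.573 and 4.86 ± 0.343 CPM (SD, n = 2 each), a log2 fold change of 0.97 ± 0.44 (SE) with FDR = 0.0231 in the exact test. The call was lost in 5 of 11 alternative fits, which put the FDR at 0.107 to 0.145 for these 5, and held in only 1 of 4 fits with a library left out. Without parental replicate 3 the FDR was 0.282, without TRC replicate 1 it was 0.221 and without TRC replicate 3 it was 0.113.

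*Jag1* (ENSMUSG00000027276), on the minus strand at chr2:137081456-137116644, encodes the other Jagged ligand. Its levels were 17.4 and 14.4 CPM in parental replicates 1 and 3 and 14 and 9.54 CPM in TRC replicates 1 and 3. Both TRC libraries lay below both parental libraries, although TRC replicate 1 and parental replicate 3 differed by only 1.03 times. The log2 fold change was -0.44 ± 0.31 (SE) with FDR = 0.392 in the exact test and a 95% interval from -1.05 to 0.18.

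The Delta-like ligands were barely detected. *Dll1* (ENSMUSG00000014773, chr17:15367354-15376872, minus strand), an activating ligand, had 2 and 0 counts in the parental and 3 and 0 counts in the TRC libraries, at or under the floor in each. *Dll3* (ENSMUSG00000003436, chr7:28293553-28302238, minus strand), a divergent ligand known to act within the cell that makes it, had 1 and 6 counts against 3 and 1 counts. The ratio of its summed counts scaled to library size was 0.548, with an exact 95% counting interval from 0.118 to 2.16, so no difference was detectable at this depth. *Dll4*, the remaining Delta-like ligand, had 2 counts in each parental library and 3 and 5 counts in the TRC libraries.

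Per length, Jagged mRNA therefore made up nearly all ligand mRNA, and *Jag1* the larger part of it in every library. *Jag1* held 87.1% and 86.9% of the summed ligand RPKM in the parental and 75.1% and 70% in the TRC libraries. The *Jag2* share was 12% and 10.5% against 22.9% and 28.3%, means of 11.2 ± 1.11% and 25.6 ± 3.8% (SD, n = 2 each). With the length of the longest coding transcript in place of all exons, a choice made after seeing the data, these means were 14.2% and 31.1%. The summed ligand RPKM was 3.44 and 2.84 in the parental and 3.19 and 2.34 in the TRC libraries, so the groups overlapped in their total while the shares did not. An exact permutation test of 2 against 2 libraries cannot go below p = 0.333, so the shares are given as a description.

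*Dtx4* (ENSMUSG00000039982), on the minus strand at chr19:12466338-12501454, encodes a ubiquitin ligase of the Deltex family, which acts on the trafficking of Notch receptors. It had 79 and 41 counts in the parental and 12 and 15 counts in the TRC libraries, or 1.78, 1.16, 0.289 and 0.36 CPM. The lower parental library was 3.22 times the higher TRC library. Only the parental libraries brought the gene past the filter. The mean fell from 1.47 ± 0.435 to 0.325 ± 0.0508 CPM (SD, n = 2 each), a 4.52-fold lower level in TRCs, with a log2 fold change of -2.18 ± 0.83 (SE) and FDR = 1.55e-05 in the exact test. The call held with each library left out (log2 fold change -2.44 to -1.83), but DESeq2's Wald test gave an adjusted p of 0.051. Of the other Deltex genes, *Dtx3l* was upregulated and is described with the ubiquitin group, and *Dtx1* had 1 count in parental replicate 1 and 0 in the other libraries.

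*Hes1* (ENSMUSG00000022528), on the plus strand at chr16:30064384-30067796, encodes a transcriptional repressor and is the classic target of the pathway. It had 201 and 197 counts in the parental and 236 and 196 counts in the TRC libraries, which correspond to 4.52, 5.58, 5.68 and 4.71 CPM. The groups overlapped, with the lowest value in parental replicate 1 and the highest in TRC replicate 1. Mean levels were 5.05 ± 0.751 and 5.19 ± 0.683 CPM (SD, n = 2 each), with a log2 fold change of 0.04 ± 0.39 (SE) and FDR = 0.956 in the exact test. The 95% interval from DESeq2, from -0.72 to 0.80, does not contain a fall or a rise of 2-fold, and the sign turned without parental replicate 1 (-0.10) and without TRC replicate 1 (-0.11). Per length *Hes1* lay at 2.22, 2.74, 2.79 and 2.31 RPKM.

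*Hey1* (ENSMUSG00000040289), on the minus strand at chr3:8663359-8667256, encodes a related repressor and had 2 and 5 counts in the parental and 6 and 7 counts in the TRC libraries. Its summed counts of 7 and 13 gave a scaled ratio of 1.78 with an exact 95% counting interval from 0.66 to 5.27. The interval included no difference, and the gene was not tested.

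The 6 further Hes, Hey and feedback genes that the wider list groups as targets were not alike. Whether Notch drives any of them in these cells was not tested. *Hey2* (ENSMUSG00000019789), a repressor gene known from heart and vessel development, had 4 and 7 counts in the parental and 59 and 77 counts in the TRC libraries, or 0.09, 0.198, 1.42 and 1.85 CPM. The parental libraries were close to the floor and both TRC libraries were far above it. *Hey2* thus passed the filter only through the TRC libraries, so the filter admitted it only as a gene higher in TRCs. The log2 fold change was 3.53 ± 0.92 (SE) with FDR = 1.23e-10 in the exact test, and the call held with each library left out, with values from 3.02 without parental replicate 1 to 4.14 without parental replicate 3. *Hes6*, whose product is known to oppose *Hes1*, rose from 15.1 and 18.9 CPM to 38 and 34 CPM, a log2 fold change of 1.08 with FDR = 0.00373. This call was lost without TRC replicate 1 (FDR = 0.1) and without parental replicate 1 (FDR = 0.0578). *Hes7*, an oscillating gene of the segmentation clock, was under the filter but had 4 and 0 counts against 22 and 19 counts, a scaled ratio of 9.83 with a counting interval from 3.56 to 37.8. *Hes5* and *Nrarp*, an inhibitor gene that Notch switches on, had 0 counts in all 4 libraries, which allows up to 0.085 CPM in the shallowest, and *Heyl* had 1 count in parental replicate 1.

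**Figure D3:**
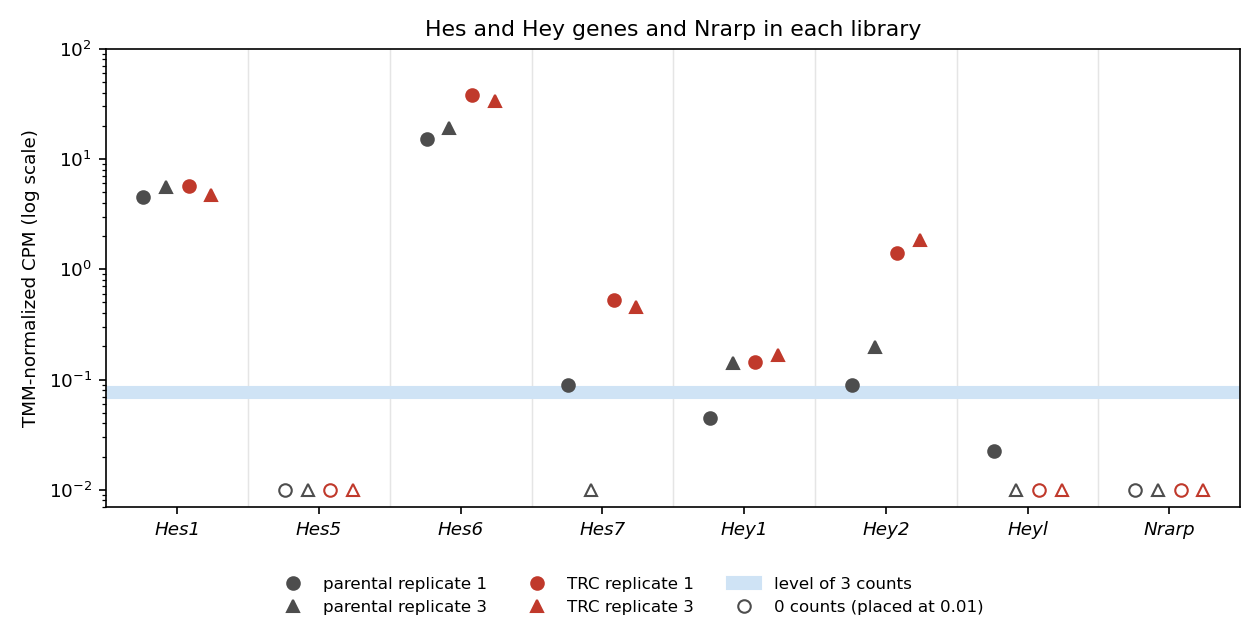
TMM-normalized CPM (y axis, log scale) of the Hes and Hey genes and *Nrarp* (x axis) in each library, with colours, band and open symbols as in the plot of the 10 genes. *Hey2* and *Hes6* separated by group, at 0.09 and 0.198 against 1.42 and 1.85 CPM and at 15.1 and 18.9 against 38 and 34 CPM, while *Hes1* did not and *Hes5* and *Nrarp* stood at 0 counts.

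Promoter sequences from RefSeq (GRCm38.p6, 250 bases before to 50 bases after each start) were searched on both strands for GTGGGAA, the core letters bound by RBPJ, whose reverse complement is TTCCCAC. Of the 32851 promoters of that length 2097 held the letters (6.38%) and 84 held them at least 2 times (0.256%). For 7 of the 10 genes a promoter was matched, and none of their 8 promoters held the letters; *Hes1*, *Hey1* and *Dtx4* had no entry. With the wider list, 7 of 73 promoters held them, those of *Hey2*, *Hes5*, *Hes7*, *Lfng*, *Psen2*, *Spen* and *Aph1a*, and *Hey2* and *Hes5* held them in 2 places. These last promoters are shown because they share the letters while *Hey2* rose in TRCs and *Hes5* had 0 counts. Each is read 5′ to 3′ on the strand of its gene, chr10:30842774-30843033 on the minus strand and chr4:154960673-154960932 on the plus strand, from 250 bases before to 10 bases after the start, with the letters in capitals.
Hey2: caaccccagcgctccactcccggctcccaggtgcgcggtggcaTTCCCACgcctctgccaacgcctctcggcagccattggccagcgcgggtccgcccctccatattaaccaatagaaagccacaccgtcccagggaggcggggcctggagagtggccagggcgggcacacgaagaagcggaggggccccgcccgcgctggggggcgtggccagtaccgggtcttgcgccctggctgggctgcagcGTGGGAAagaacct
Hes5: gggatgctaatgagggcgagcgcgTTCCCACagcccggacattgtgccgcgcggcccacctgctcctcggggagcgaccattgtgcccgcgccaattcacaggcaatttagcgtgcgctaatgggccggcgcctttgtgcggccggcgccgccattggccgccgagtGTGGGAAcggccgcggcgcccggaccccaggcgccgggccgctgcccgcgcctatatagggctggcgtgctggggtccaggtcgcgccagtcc
Counted from the start, the *Hey2* matches began at position -207 on the opposite strand and at -4 on the strand of the gene. The *Hes5* matches began at -226 on the opposite strand and at -83 on the strand of the gene. A match describes the letters and is not a measured binding site.

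The wider list held 59 further genes of the pathway, of which 50 were tested. In TRCs 7 of them rose, 1 fell and 42 did not pass the test, where 9.00% of all genes tested rose and 5.67% fell. Their median log2 fold change was 0.10, beside 0.00 for all genes tested.

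Among the 10 genes for receptor proteases and their subunits, 2 rose, and both TRC libraries lay above both parental libraries for 8, where 9.00% and 30.2% of all genes tested did so. The median log2 fold change of the group was 0.45. *Psen2*, a catalytic subunit of gamma-secretase and the gene of this group with the highest mean CPM over the 4 libraries, had 158 and 190 CPM in the parental and 351 and 276 CPM in the TRC libraries (log2 fold change 0.85, FDR = 0.0302 in the exact test). *Aph1b*, a scaffold subunit, had 11.4 and 9.89 against 25 and 21.8 CPM (log2 fold change 1.14, FDR = 0.00194). Its near-identical copy *Aph1c* had a log2 fold change of 0.68 with FDR = 0.133, and since non-unique reads were not counted the split between these copies is uncertain. The *Psen2* call was lost with any library left out (FDR = 0.075 to 0.359), and the *Aph1b* call without TRC replicate 1 (FDR = 0.08) and without parental replicate 3 (FDR = 0.0572). For the 7 gamma-secretase subunits the median was 0.53.

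In the group of ubiquitin ligases and trafficking factors 14 of 15 genes were tested and 3 rose, where 9.00% of all genes tested did so. The median log2 fold change was 0.32. *Neurl1b*, a ligase that acts on ligands, had 0.787 and 1.25 CPM in the parental and 2.24 and 2.28 CPM in the TRC libraries (log2 fold change 1.16, FDR = 0.0145). *Numbl*, a relative of the Notch antagonist Numb, had 11.3 and 10.8 against 21 and 18.5 CPM (log2 fold change 0.84, FDR = 0.029). *Dtx3l*, a Deltex family ligase, had 11.3 and 8.64 against 20.4 and 16.2 CPM (log2 fold change 0.87, FDR = 0.0333). These calls depended on which libraries entered the fit, since *Numbl* was lost with any library left out (FDR = 0.0823 to 0.286), *Neurl1b* was kept only without parental replicate 3 (FDR = 0.0131) and *Dtx3l* only without parental replicate 1 (FDR = 0.0309). *Nedd4*, the most abundant gene of the group in CPM, had 2289, 2133, 2267 and 2124 CPM and a log2 fold change of -0.01.

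The nuclear group of 20 genes holds *Rbpj*, the Mastermind genes, acetyltransferases and corepressors. Its median log2 fold change was -0.09, with 14 genes below 0, where 5711 of all 11483 genes tested lay below 0. *Spen*, a corepressor that binds RBPJ, was the gene that fell, from 185 and 324 CPM to 145 and 109 CPM (log2 fold change -1.00, FDR = 0.028). Parental replicate 3 was the highest library for *Spen* as it was for *Notch2*, and without it the log2 fold change was -0.55 with FDR = 0.442. The call was also lost without TRC replicate 1 (FDR = 0.0957) and without TRC replicate 3 (FDR = 0.354). *Ncor1*, the most abundant of the group in CPM, lay between 315 and 342 CPM in the 4 libraries. *Rbpj* had a log2 fold change of 0.37 with FDR = 0.429.

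The glycosyltransferases that modify the extracellular part of the receptors gave 4 tested genes of 6, whose median log2 fold change was 0.09 and whose FDR values ran from 0.338 to 0.939. *Eogt*, the most abundant in CPM, had 172 and 141 CPM in the parental and 207 and 216 CPM in the TRC libraries, with a log2 fold change of 0.43 and FDR = 0.338. The fringe genes *Lfng* and *Mfng*, which shift receptors between ligand families, were under the filter, with 6 and 3 against 10 and 15 counts and with 4 and 1 against 8 and 19 counts. Their scaled ratios of summed counts were 2.66, with a counting interval from 1.2 to 6.48, and 5.18, with an interval from 1.97 to 17.2. These intervals hold no spread between libraries. The remaining receptor gene, *Notch4*, had 23 and 5 counts in the parental and 13 and 22 counts in the TRC libraries.

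**Figure D4:**
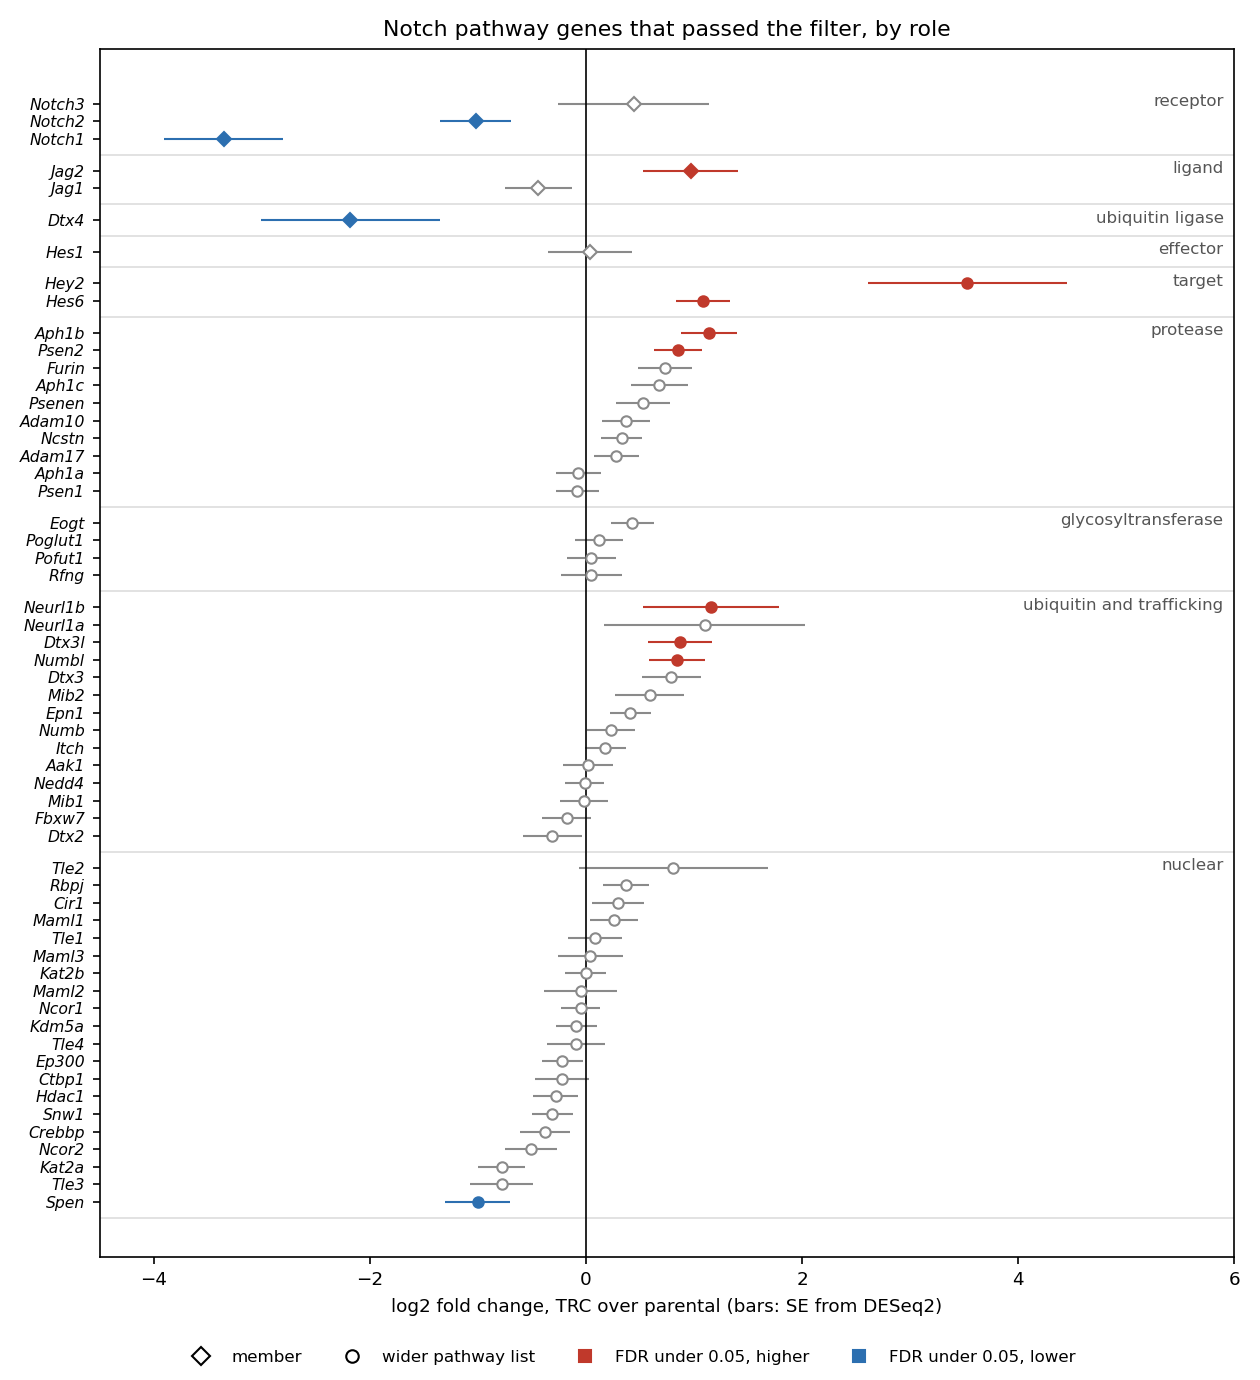
Log2 fold change of TRC over parental cells (x axis, with bars of 1 SE from DESeq2) for the 57 genes of both lists that were tested, grouped by role (y axis), with diamonds for the 10-gene list and colours for genes with FDR under 0.05 in the edgeR exact test. The coloured genes are 8 that rose and 4 that fell, with *Notch1* at -3.35 and *Hey2* at 3.53 as the extremes.

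**Figure D5:**
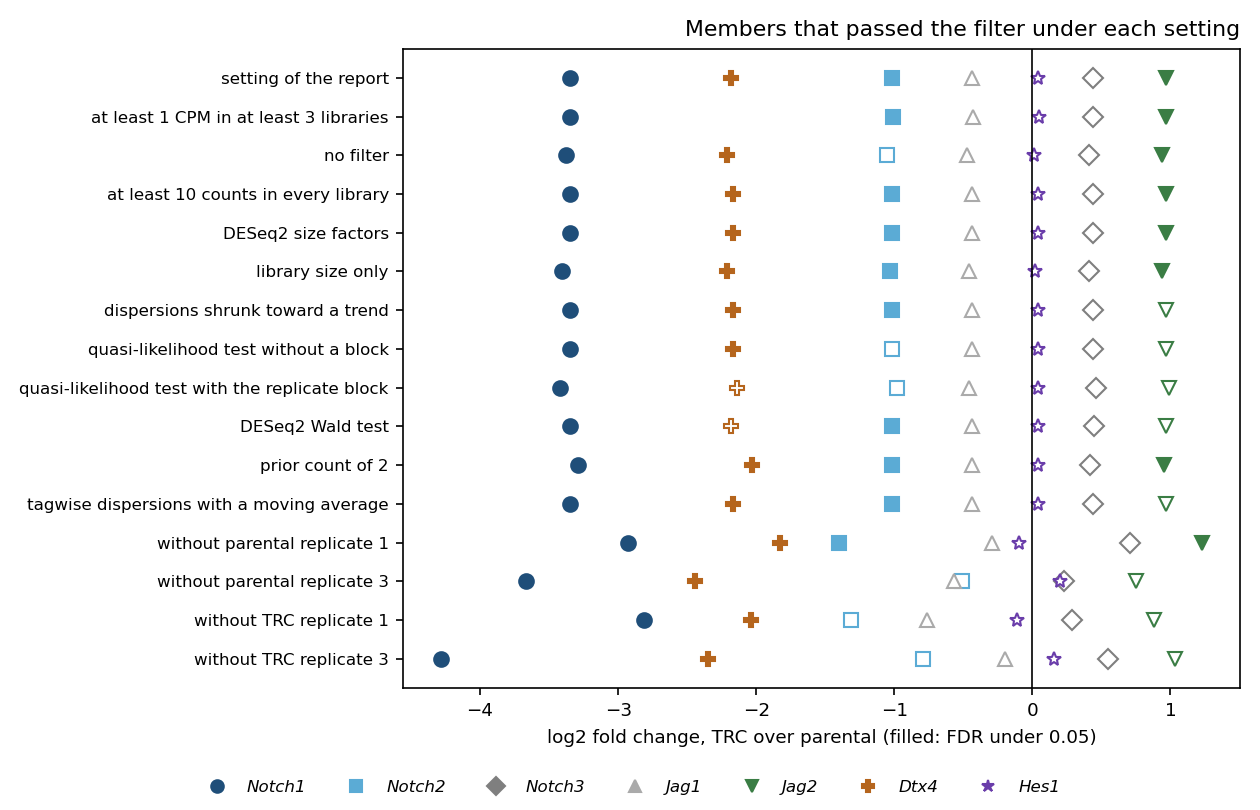
Log2 fold change (x axis) of the 7 tested genes under the setting used above, each alternative and each library left out (y axis), with filled symbols for FDR under 0.05. *Notch1* was filled in all rows, from -4.28 to -2.81, while *Notch2* and *Jag2* were open in part of them and *Hes1* stayed between -0.11 and 0.20.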

How the data were processed

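Poly(A)-selected stranded RNA-seq libraries of B16F1 mouse melanoma cells were analysed, 2 of parental control cells and 2 of TRCs, grouped by the cell type in the labels. The authors used Trimmomatic 0.35 on single-end reads, TopHat2 2.1.0 (with Bowtie2 2.2.6 and SAMtools 1.3, as named in the submitters' processing notes) for alignment to GRCm38, and htseq-count for counting on Ensembl genes. Deposited values were whole-number counts per gene without normalization, 35948295 to 43511554 per library. Rows that name no gene were removed.

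Counts were tested with edgeR 4.0.16 in R 4.3.3 (TMM factors, common and tagwise dispersions without a trend, two-sided exact test, prior count of 0.125, at least 1 CPM in at least 2 libraries), with Benjamini-Hochberg adjustment over 11483 genes. Standard errors came from DESeq2 1.42.0. The dispersion trend is not given in the sources used here. The common biological coefficient of variation was 21.2%. RPKM used the union of exons in GENCODE M21 (GRCm38), in which 37693 of the 39179 genes were found. Counting intervals are exact and cover counting error only, since they use the counts summed over the libraries of each group. The reads also carry no molecular identifiers. The fit was tested on simulated data drawn with its own dispersions. With 200 of 11483 genes changed by 1.5 in log2, the exact test recovered 182 and falsely called 18 others. With no gene changed it called 1. Proteins were not analysed here.

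The members and lists were chosen with earlier results of these data known. All 10 genes are named. From the wider list, genes with FDR under 0.05 and the most abundant gene of each group are named, and from the noncanonical ligands those with FDR under 0.05. *Rbpj*, *Aph1c*, *Dtx1*, *Lfng*, *Mfng*, *Hes5*, *Hes7*, *Heyl*, *Nrarp*, *Megf10*, *Kat2a*, *Tle3* and the genes that only hold promoter letters were named after their values were seen. The same holds for *Dlk1*, *Mfap5* and the marker *Dct*. Alternatives were other filters, DESeq2 size factors, library size only, dispersions with a trend, edgeR's quasi-likelihood test, once plain and once with the replicate block, DESeq2's Wald test, a larger prior count, each library left out, and, added after seeing the data, tagwise dispersions with a moving average over expression level and another gene length.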

Additional observations from a re-analysis of the deposited data

How the results depend on the processing

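Of the 10 genes, *Notch1* was downregulated under each of the 11 alternatives (FDR at most 0.0363) and with each library left out. The downregulation of 3 genes became 1 once the quasi-likelihood fit included the replicate block, since *Notch2* (-0.98, FDR = 0.121) and *Dtx4* (-2.14, FDR = 0.0566) missed the threshold there. *Notch2* also missed it without a filter (-1.05, FDR = 0.0704) and under the quasi-likelihood test without a block (-1.02, FDR = 0.0716), and *Dtx4* under DESeq2's Wald test (-2.18, adjusted p = 0.051). *Dtx4* has no value under a filter of 1 CPM in at least 3 libraries, which removed it. Among the 11 alternatives the larger prior count alters only the fold changes, so it could not change the call of any gene. The upregulation of 1 gene, *Jag2*, became 0 with dispersions shrunk toward a trend, in both quasi-likelihood tests, under DESeq2 and with a moving average. Its log2 fold change was 0.99 with the block and 0.97 in the others, and its unadjusted p was at most 0.0366. For the wider list, 7 genes rose in the exact test, 4 in the quasi-likelihood test and 3 with the replicate block. The 1 gene that fell became 0 without a filter, 2 with the stricter filter and with library size only, and 3 with a trend, with a moving average and under DESeq2, where *Kat2a* (-0.78) and *Tle3* (-0.78) joined *Spen*. In both quasi-likelihood tests the 1 gene was *Kat2a* (FDR = 0.0458 and, with the block, 0.0465) and not *Spen* (FDR = 0.0627 and 0.101). Over all genes the quasi-likelihood test called 567 higher, and with the replicate block 477 higher and 308 lower. Deviations of libraries with the same number from their group means correlated at r = 0.0267 across genes. A single correlation over all genes cannot show whether the numbers mark a shared culture or batch, so they are treated as labels. The cause of these differences was not tested.

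With 1 library left out, the remaining library of that group was assumed to vary like the other group. The count of the 10 genes that rose ranged from 0 to 1, that of the wider list from 1 to 7, and that of the wider list that fell from 0 to 2. The log2 fold changes ranged from -1.40 to -0.51 for *Notch2*, from 0.75 to 1.23 for *Jag2* and from -0.11 to 0.20 for *Hes1*, the last turning sign. All genes called higher ranged from 519 to 1188 and lower from 201 to 702. The interval of *Notch3*, near 1 CPM, was wide (-0.92 to 1.82), and genes under the filter were not tested.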

Other observations

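Among 11 genes for noncanonical Notch ligands, membrane or secreted proteins that bind Notch receptors without the domain of the Delta and Jagged ligands, 6 were tested, and 2 were upregulated in TRCs, where 9.00% of all genes tested were. *Dlk2*, a membrane protein related to Delta that is known to inhibit Notch, had 26 and 9 counts in the parental and 185 and 143 counts in the TRC libraries, or 0.585, 0.255, 4.45 and 3.44 CPM. Both TRC libraries lay far above both parental libraries, with a log2 fold change of 3.19 and FDR = 7.64e-13 in the edgeR exact test. *Dlk2* passed the filter only through the TRC libraries, so the filter admitted it only as a gene higher in TRCs. The call held under each of the 8 alternatives that tested it and with each library left out, with values from 2.75 without parental replicate 3 to 3.93 without parental replicate 1. *Thbs2*, a matrix glycoprotein, had 2.23 and 1.19 CPM in the parental and 14.6 and 5.5 CPM in the TRC libraries. Its log2 fold change was 2.54 with FDR = 4.31e-06, and 1.66 with FDR = 0.00563 without TRC replicate 1, the highest library. The 4 others that were tested had FDR values from 0.0916 to 0.931. The TRC libraries were far apart for *Megf10*, with 134 and 30.6 CPM against 48.2 and 61.7 CPM in the parental libraries. *Dlk1* and *Mfap5* had 0 counts in every library.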
